A study of Mus musculus with 6 samples.

Results

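The glutathione and NRF2 antioxidant genes are a hand-listed module of 49 genes, listed by name and function with earlier results of these data known; the rule itself uses no measured value. They cover the glutathione S-transferases (GSTs), the synthesis and recycling of glutathione, the glutathione peroxidases, NRF2 with its inhibitor KEAP1 and a few of its targets, catalase with superoxide dismutases and peroxiredoxins, and the metallothioneins. All 49 were among the 52323 genes of the deposited count table, and all 49 were among the 19135 genes that passed the filter on low counts and were tested. Damaged hepatocytes (dHeps) came from mouse livers injured with CCl4, of the genotype AAV-TBG-Cre:Rosa-LSL-tdTomato, in which an AAV with the liver-specific TBG promoter drives Cre and marks hepatocytes with tdTomato, and every group shares this origin. The cells were held for 16 days in serum-free Hepatocyte Maintenance Medium with DMSO, with 3 compounds (3C) or with 5 compounds (5C). In 3C these were CID755673 at 50 µM, which inhibits protein kinase D, the ROCK inhibitor GSK429286A at 2 µM, and ETC-1002 at 5 µM, described as an AMPK activator. The 5C cocktail added 5 µM salidroside and 2 µM forskolin, which activates adenylate cyclase, so that 5C against 3C compares cells with and without the pair of added compounds. Each group had 2 bulk RNA-seq libraries of 65916573 to 69245895 counts. The labels do not say whether the replicates came from separate animals, and the p-values then measure only the spread between these libraries, which may be technical.

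Glutathione is a small tripeptide thiol that liver cells make in large amounts and spend on peroxides and on reactive chemicals. GSTs join it to electrophiles, glutathione peroxidases use it to reduce peroxides, and the glutamate-cysteine ligase (catalytic subunit Gclc, modifier subunit Gclm) sets the pace of its synthesis from cysteine, part of which enters as cystine through the transporter xCT (Slc7a11). Under oxidative stress the transcription factor NRF2 (Nfe2l2) escapes KEAP1 and drives many of these genes through antioxidant response elements in their promoters, while metallothioneins bind zinc and copper and respond to the metal sensor MTF1.

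In 3C the module lay mostly above DMSO, and in 5C its members lay on both sides of DMSO. Of the 49 members 12 were called higher and 0 lower in 3C against DMSO, where called means a Benjamini-Hochberg adjusted p under 0.05 in edgeR's quasi-likelihood test and an absolute log2 fold change above 1. At an unadjusted p under 0.05, 31 members were higher and 5 lower in 3C, beside 6626 of all 19135 tested genes in either direction. DESeq2 and limma on log2 FPKM also called 0 lower. The same rule called 5.83% of all tested genes higher and 3.62% lower in that comparison. In 5C against DMSO 6 members were called higher and 4 lower, beside 7.30% and 4.42% of all tested genes. In 5C against 3C 1 was called higher, near the 2.16% of all tested genes, and 6 were called lower, beside 0.852%. The median log2 fold change of the 49 members was 0.60 in 3C against DMSO, 0.17 in 5C against DMSO and -0.37 in 5C against 3C, and that of all tested genes was 0.01, 0.00 and -0.01. The comparisons with DMSO use the same DMSO libraries, and their values are given side by side only.

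Without the limit on the fold change, 25 members were higher and 2 lower in 3C against DMSO, beside 12.7% and 11.8% of all tested genes. Against DMSO, 5C had 19 higher and 11 lower members, beside 15.6% and 13.1%, and against 3C it had 4 higher and 23 lower, beside 7.33% and 5.33%. In what follows "rose" and "fell" mean an adjusted p under 0.05, and "called" adds the limit on the fold change. The share of all counts that fell on the 49 members was 0.586% and 0.638% in the DMSO libraries, 0.920% and 0.852% in 3C, and 0.658% and 0.612% in 5C, so both 3C libraries lay above the other 4.

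**Figure D1:**
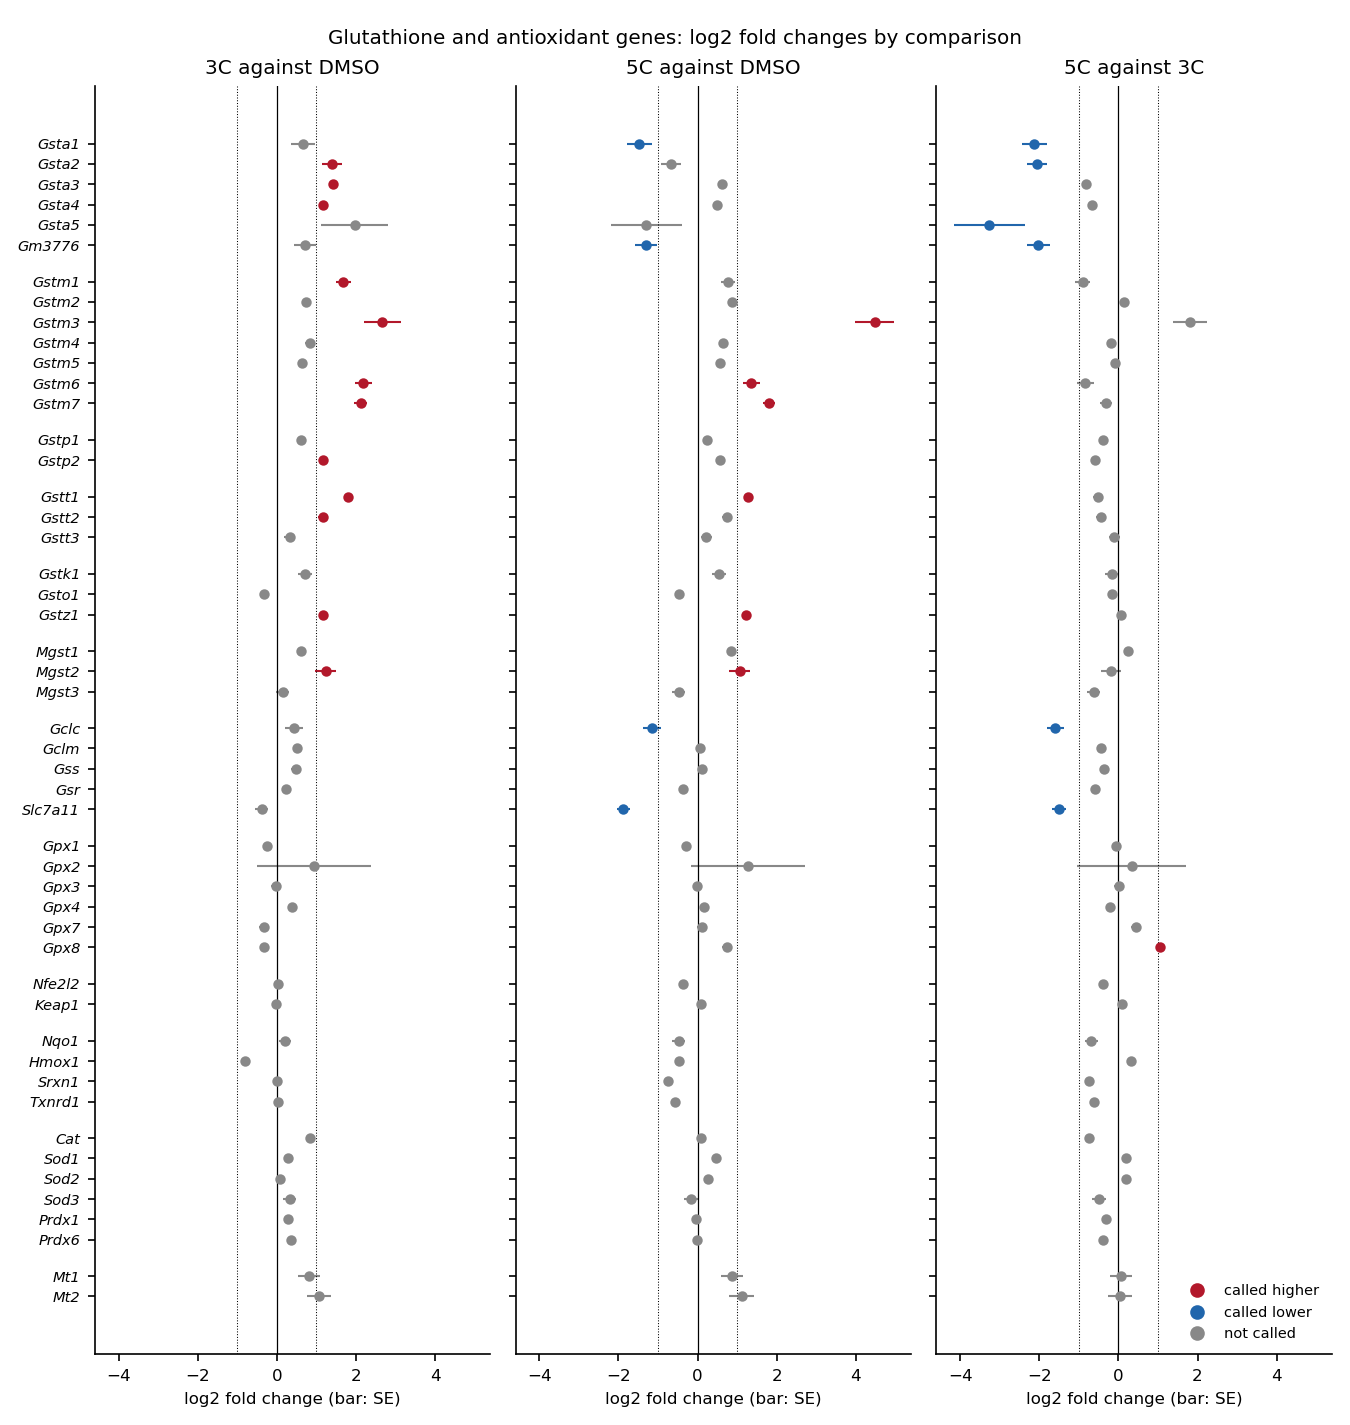
Log2 fold change (x axis, bars are standard errors) of each of the 49 members (y axis, grouped by role) for the 2 cocktails against DMSO and for 5C against 3C. Red and blue points were called higher and lower, grey points were not called, and dotted lines mark the limit of 1 on either side of 0. The mu-class members lie right of 0 against DMSO in both cocktails, while Gsta1, Gm3776, Gclc and Slc7a11 lie left of 0 in 5C.

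The cells labelled hepatocytes carried markers of several cell types, and these moved with the groups. The summed CPM (counts scaled to equal library totals) of 12 hepatocyte markers was 2441 to 2766 in DMSO, 11009 to 11484 in 3C and 10088 to 14763 in 5C, with 11 and 10 of the 12 called higher in 3C and 5C against DMSO. That of 12 macrophage markers was 13379 to 14360 in DMSO, 4601 to 4609 in 3C and 3063 to 3098 in 5C, with all 12 called lower in both. The 12 stellate and fibroblast markers summed to 7222 to 9425 CPM in DMSO and 3C and to 11814 to 12777 in 5C, with 1 called higher and 2 lower in 3C and 4 higher in 5C against DMSO. The 8 mesothelial markers summed to 979 to 1410 CPM in DMSO and 3C and to 2308 to 2412 in 5C, with 1 and 5 of the 8 called higher in 3C and 5C against DMSO. The 10 cholangiocyte markers summed to 2947 and 3442 CPM in DMSO, 3644 and 3839 in 3C and 2758 and 2448 in 5C. Against DMSO 8 were called higher in 3C and 5 in 5C. In 5C against 3C 1 was called lower and 0 higher, with a median log2 fold change of -0.65. The 10 endothelial markers summed to 94.1 to 338 CPM, highest in DMSO, where Lyve1 made up most of the sum (309 and 319 CPM) and was called lower in both cocktails. Of the 9 endothelial markers tested, 5 were called higher in 3C and 7 in 5C against DMSO, with median log2 fold changes of 1.74 and 3.15, and Cdh5, for example, was at 1.25 and 1.06 CPM in DMSO, 6.45 and 14.9 in 3C and 43.3 and 72.2 in 5C. No marker of any list was at 0 in every library. The part of these shifts in the results below was not tested, and in bulk RNA fewer cells of a type and less RNA per cell cannot be told apart.

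The alpha-class GSTs, which in liver conjugate lipid peroxidation and xenobiotic products, held most of the calls between the cocktails. All 6 members had a positive log2 fold change in 3C against DMSO, and 3 of them were called higher. Against 3C, all 6 fell in 5C and 4 were called lower. Gm3776, named Gsta13 in the GENCODE annotation, is a near copy of Gsta1 a little further along chromosome 9. Upstream of the RefSeq start sites, placed on GRCm39 by exact match, 54 bases of the promoters of Gsta1 and Gm3776 were identical, and Gsta2 matched them at 49 of the 54, with capitals marking the 5 bases that differ from Gsta1. They are shown because these 3 genes moved alike between 5C and 3C, and a link between sequence and movement was not tested. None of the stretches overlaps a GENCODE exon, although that of Gsta2 lies inside the annotated span of Gsta2 (chr9:78238292-78263077), away from its outermost start.
Gsta1, chr9:78137854-78137907, plus strand: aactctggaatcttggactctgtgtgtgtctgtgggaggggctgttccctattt
Gm3776, chr9:78164327-78164380, plus strand: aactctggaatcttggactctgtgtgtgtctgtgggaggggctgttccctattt
Gsta2, chr9:78254474-78254527, minus strand: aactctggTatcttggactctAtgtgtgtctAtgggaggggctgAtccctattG
Over the whole 250 bases before the start, Gsta1 and Gm3776 were identical at 236 of 263 aligned columns and Gsta1 and Gsta2 at 190 of 266.

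Gsta1 was at 34.3 and 39.7 CPM in DMSO, 66.9 and 52.1 in 3C and 17.2 and 9.07 in 5C. The 3 groups did not overlap, with 5C lowest. Its log2 fold change was -1.48 ± 0.32 (SE, adjusted p = 0.0221) in 5C against DMSO and -2.13 ± 0.32 (adjusted p = 0.0141) in 5C against 3C, and 0.65 ± 0.31 (adjusted p = 0.21) in 3C against DMSO. Gm3776 had 28.5 and 32.5 CPM in DMSO, 54.9 and 47.6 in 3C and 16.0 and 8.48 in 5C. It showed the same order of groups, with log2 fold changes of -1.31 ± 0.28 (adjusted p = 0.0174) in 5C against DMSO and -2.02 ± 0.28 (adjusted p = 0.00787) in 5C against 3C. Of the 50-base words in its longest annotated transcript 94.2% also occur in other genes, and 91.2% of those of Gsta1. The counts of this pair thus depend on how shared reads were assigned. Their summed CPM of 62.9 and 72.2 in DMSO, 121.8 and 99.7 in 3C and 33.2 and 17.5 in 5C had the same order. With 1 library left out of the fit, the call in 5C against DMSO was lost for Gsta1 without DMSO replicate 1 (adjusted p = 0.106) or 2 (0.139), and for Gm3776 also without 5C replicate 2, where its log2 fold change was -0.93. Against 3C the call of Gsta1 was lost without DMSO replicate 1 (adjusted p = 0.0610) or 2 (0.0613) or 3C replicate 1 (0.0653), and that of Gm3776 without 3C replicate 1 (0.0524).

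Gsta2, a further alpha GST, had 3.41 and 3.84 CPM in DMSO, 11.3 and 8.19 in 3C and 2.68 and 1.83 in 5C. It was called higher in 3C against DMSO (log2 fold change 1.39 ± 0.26, adjusted p = 0.00369) and lower in 5C against 3C (-2.06 ± 0.26, adjusted p = 0.00159). Gsta5 was near the floor, with 34 and 5 counts in DMSO, 98 and 58 in 3C and 10 and 6 in 5C. Its DMSO libraries spread from below to above those of 5C, and its call in 5C against 3C (-3.26 ± 0.91, adjusted p = 0.0476) was lost without any 1 of the 3C or 5C libraries (adjusted p = 0.0989 to 0.265).

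Gsta3 and Gsta4 kept above DMSO in both cocktails. Gsta3, a major alpha GST of mouse liver, had 122 and 128 CPM in DMSO, 366 and 323 in 3C and 193 and 184 in 5C. Its log2 fold change was 1.43 ± 0.08 (adjusted p = 5.03e-06) in 3C, called higher, and 0.61 ± 0.08 (adjusted p = 4.17e-04) in 5C, and the groups did not overlap. Gsta4, whose enzyme favours the lipid peroxidation product 4-hydroxynonenal, had 31.5 and 31.0 CPM in DMSO, 74.6 and 68.1 in 3C and 47.6 and 39.6 in 5C. It was called higher in 3C (1.16 ± 0.10, adjusted p = 4.11e-05) and rose in 5C by less (0.50 ± 0.10, adjusted p = 0.00461). Per length, the ratio of Gsta3 to Gsta1 in FPKM was 2.70 and 2.73 in DMSO, 4.29 and 5.43 in 3C and 9.56 and 17.6 in 5C. Gsta4 (chr9:78090056-78117763) neighbours Gsta1 (chr9:78137927-78149966) in the alpha-class cluster, and the pair had opposite signs in 5C against DMSO.

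**Figure D2:**
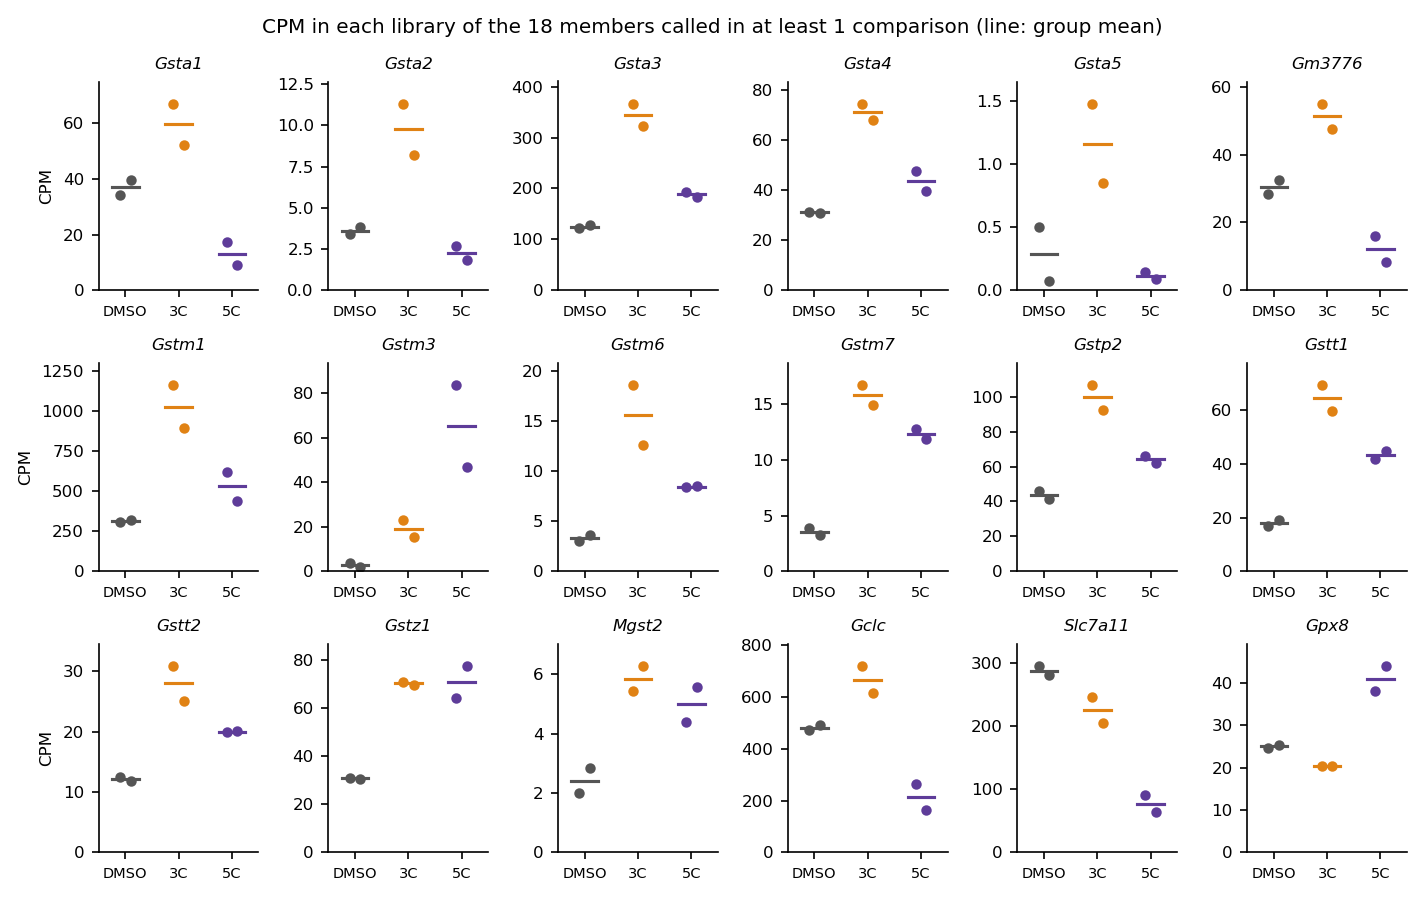
CPM (y axis, from 0, its own scale in each panel) in each of the 2 libraries of DMSO, 3C and 5C for the 18 members called in at least 1 comparison; points are libraries and lines group means. Gsta1, Gm3776, Gclc and Slc7a11 have their lowest values in both 5C libraries, whereas Gstm3 has its highest values there.

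The mu-class GSTs, a large cytosolic GST class of mouse liver, were above DMSO in both cocktails. All 7 members rose in 3C, with 4 called, and all 7 rose in 5C, with 3 called. They lie in 1 cluster on chromosome 3 between Gstm5 (chr3:107803137-107806005) and Gstm4 (chr3:107947721-107952210). Gstm3 had the largest absolute log2 fold change of the 49 members. It was at 3.83 and 2.09 CPM in DMSO, 23.1 and 15.3 in 3C and 83.6 and 46.6 in 5C. Every 5C library lay above every 3C library, and these above DMSO. The log2 fold change was 4.47 ± 0.49 (22.2-fold, adjusted p = 0.00347) in 5C against DMSO, 2.67 ± 0.47 (6.34-fold, adjusted p = 0.0186) in 3C against DMSO, and 1.81 ± 0.43 (adjusted p = 0.0711) in 5C against 3C. Its call in 3C was lost without any 1 of the DMSO or 3C libraries (adjusted p = 0.0526 to 0.110), while that in 5C against DMSO held without each library.

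Gstm1, the mu GST with the highest FPKM, had 306 and 321 CPM in DMSO, 1161 and 890.2 in 3C and 620.4 and 437 in 5C. It was called higher in 3C (1.68 ± 0.19, adjusted p = 0.00116) and rose in 5C (0.77 ± 0.19, adjusted p = 0.0241); without DMSO replicate 1 the adjusted p in 3C was 0.0506. Against 3C it fell in 5C (-0.91 ± 0.19, adjusted p = 0.0263). Gstm6 had 3.05 and 3.63 CPM in DMSO, 18.6 and 12.6 in 3C and 8.41 and 8.49 in 5C, with log2 fold changes of 2.19 ± 0.22 (adjusted p = 1.01e-04) in 3C and 1.36 ± 0.21 (adjusted p = 0.0013) in 5C. Gstm7 had 3.90 and 3.22 CPM in DMSO, 16.7 and 14.9 in 3C and 12.8 and 11.8 in 5C. Both cocktails gave a call for Gstm7, with 2.12 ± 0.16 (adjusted p = 2.10e-05) in 3C and 1.81 ± 0.16 (adjusted p = 3.67e-05) in 5C. The other 3 mu genes, Gstm2, Gstm4 and Gstm5, rose in both with log2 fold changes of 0.56 to 0.88, under the limit on the fold change.

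Within the mu class the make-up shifted per length. Gstm1 held 76.3% and 75.1% of the class's summed FPKM in DMSO, 83.9% and 82.5% in 3C and 70.2% and 66.9% in 5C. Gstm3 held 0.849% and 0.472% in DMSO, 1.59% and 1.34% in 3C and 9.03% and 6.80% in 5C. Over the 21 cytosolic and kappa GST members, the mu class took 27.7% and 25.1% of summed FPKM in DMSO, 38.5% and 34.8% in 3C and 37.7% and 32.4% in 5C. The pi class took 43.5% and 45.2% in DMSO, 34.1% and 35.9% in 3C and 38.1% and 40.5% in 5C. The alpha class took 17.3% and 18.1%, 19.4% and 20.7%, and 14.9% and 15.3%.

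**Figure D3:**
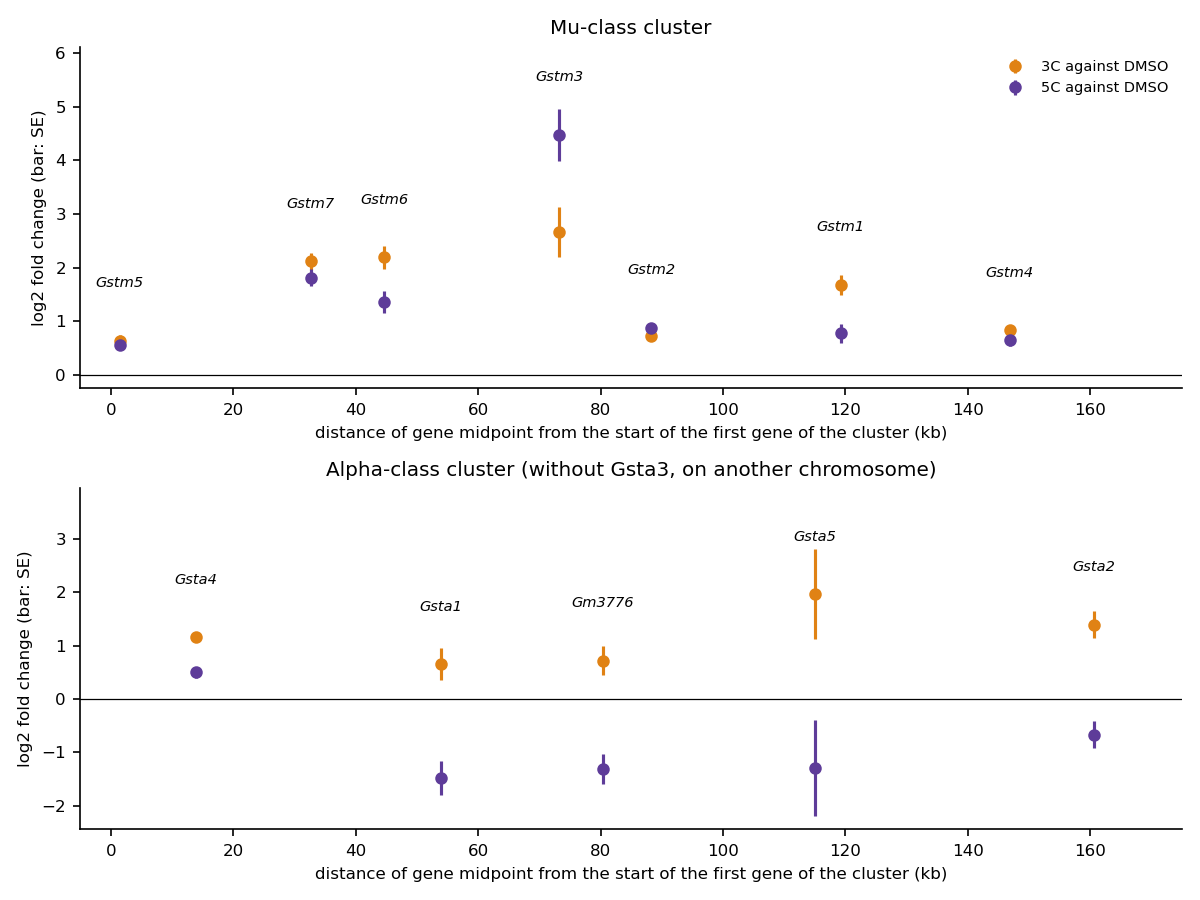
Log2 fold change against DMSO (y axis, bars are standard errors) of the mu-class (upper panel) and alpha-class (lower panel) genes by distance of the gene midpoint from the start of the first gene of each cluster (x axis, kb), for 3C in orange and 5C in purple. The mu genes lie above 0 throughout, and in the alpha cluster Gsta4 lies above 0 in 5C while Gsta1, Gm3776, Gsta5 and Gsta2 lie below 0.

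Of the other cytosolic GSTs, both pi members and 2 of 3 theta members rose in 3C. Gstp2 is a pi-class gene whose longest annotated transcript shares 59.9% of its 50-base words with other genes, mostly with Gstp1. It had 46.0 and 41.2 CPM in DMSO, 107 and 92.4 in 3C and 66.2 and 62.1 in 5C, and was called higher in 3C (1.16 ± 0.09, adjusted p = 2.44e-05). Gstp1, the member with the highest FPKM in DMSO, was at 387 and 434 CPM there, 657 and 629 in 3C, and 502 and 453 in 5C, with log2 fold changes of 0.62 (adjusted p = 6.77e-04) and 0.24 (adjusted p = 0.0652). The summed CPM of Gstp1 and Gstp2 was 433 and 475 in DMSO, 764 and 721 in 3C and 569 and 515 in 5C. Gstt1, a theta-class gene, had 16.8 and 19.2 CPM in DMSO, 69.4 and 59.7 in 3C and 41.8 and 44.8 in 5C, and was called higher in both (1.81 ± 0.11, adjusted p = 8.57e-06 and 1.28 ± 0.11, adjusted p = 3.87e-05). Gstt2 had 12.5 and 11.8 CPM in DMSO, 30.9 and 25.1 in 3C and 19.9 and 20.1 in 5C, with a call in 3C (1.17 ± 0.13, adjusted p = 1.59e-04), while in 5C it rose by 0.74 (adjusted p = 0.00198). Gstt3 did not pass the test in any comparison, at 12.4 to 17.9 CPM over all libraries.

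Gstz1, the zeta GST that also isomerises maleylacetoacetate in tyrosine breakdown, had 31.2 and 30.4 CPM in DMSO, 71.2 and 69.6 in 3C and 64.4 and 77.7 in 5C. Both cocktails gave a call, with log2 fold changes of 1.16 ± 0.10 (adjusted p = 4.87e-05) and 1.23 ± 0.10 (adjusted p = 2.59e-05), and the 3C libraries lay within the range of 5C. Gstk1, the kappa GST, rose by 0.72 in 3C and 0.55 in 5C (adjusted p = 0.016 and 0.0447), and Gsto1, the omega GST, fell by 0.31 and 0.48 (adjusted p = 0.0316 and 0.00344), all under the fold limit. Mgst2, a membrane GST, was low at 2.00 and 2.85 CPM in DMSO, 5.44 and 6.29 in 3C and 4.40 and 5.59 in 5C. Its calls (1.24 ± 0.26, adjusted p = 0.00783 in 3C and 1.06 ± 0.26, adjusted p = 0.0148 in 5C) were both lost without DMSO replicate 1, at log2 fold changes of 0.99 and 0.82, and without replicate 2 of the treated group (adjusted p = 0.0576 and 0.101). Mgst1 rose in 3C (0.60, adjusted p = 1.70e-04) and in 5C (0.85, adjusted p = 1.56e-05), the latter also above 3C. Mgst3 was lower in 5C than in 3C (-0.63, adjusted p = 0.0426).

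**Figure D4:**
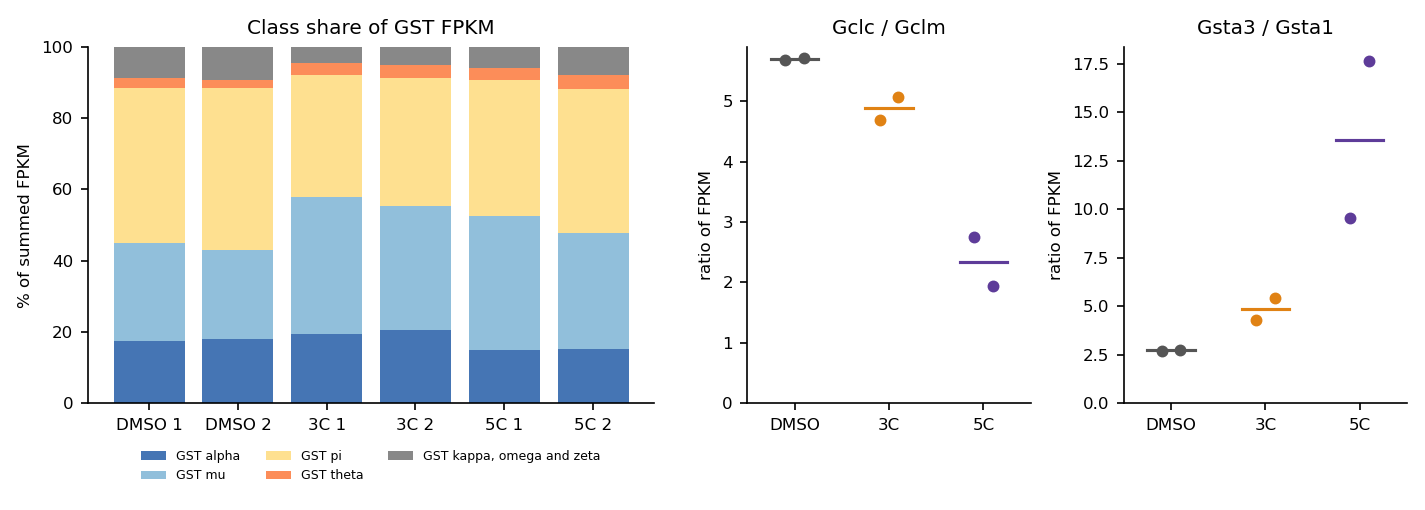
Left, share of the summed FPKM of 21 GST members held by each class (stacked bars, y axis in percent, 1 bar per library). Middle and right, the FPKM ratios of Gclc to Gclm and of Gsta3 to Gsta1 in each library (points; lines are group means). The mu share is at least 32.4% in all 3C and 5C libraries and at most 27.7% in DMSO, and the Gclc to Gclm ratio is lowest in 5C, at 2.75 and 1.94.

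In glutathione synthesis the catalytic subunit and the cystine transporter were lower in 5C. Gclc had 470.3 and 492 CPM in DMSO, 719 and 613 in 3C and 264 and 164 in 5C. It was called lower in 5C against DMSO (-1.15 ± 0.22, adjusted p = 0.0128) and against 3C (-1.59 ± 0.22, adjusted p = 0.00922), and the groups did not overlap. The call against DMSO was lost without DMSO replicate 1 (adjusted p = 0.120) or 2 (0.138), or without 5C replicate 2, where the log2 fold change was -0.86, and that against 3C without DMSO replicate 1 (0.0727) or 2 (0.0760). Slc7a11, the cystine-importing subunit of xCT, had 296 and 281 CPM in DMSO, 247 and 206 in 3C and 91.3 and 63.6 in 5C. It fell 3.68-fold against DMSO (-1.88 ± 0.17, adjusted p = 2.07e-04) and 2.83-fold against 3C (-1.50 ± 0.17, adjusted p = 0.00233), and both calls held without each library. The modifier subunit Gclm had 133 and 138 CPM in DMSO, 205 and 192 in 3C and 149.6 and 132 in 5C, with a log2 fold change of 0.07 (adjusted p = 0.546) in 5C against DMSO. The FPKM ratio of Gclc to Gclm was 5.67 and 5.71 in DMSO, 4.69 and 5.07 in 3C and 2.75 and 1.94 in 5C. Gss, glutathione synthetase, rose in 3C (0.47, adjusted p = 0.00854) and was at 0.10 in 5C (adjusted p = 0.531). Gsr, which regenerates reduced glutathione, fell in 5C against DMSO (-0.36, adjusted p = 0.0177) and against 3C (-0.59, adjusted p = 0.00418). All 5 genes of this role fell in 5C against 3C.

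NRF2 itself and 3 of its 4 classical targets fell in 5C against 3C. Nfe2l2 was at 232 and 249 CPM in DMSO, 246 and 257 in 3C and 186 and 182 in 5C, a fall of 0.37 on the log2 scale in 5C against DMSO (adjusted p = 0.00448) and of 0.40 against 3C (adjusted p = 0.00741). Keap1 was at 80.3 to 91.1 CPM in all libraries and did not pass the test in any comparison. Srxn1, sulfiredoxin, and Txnrd1, thioredoxin reductase, fell in 5C against DMSO by 0.75 and 0.58 (adjusted p = 3.94e-04 and 0.00166) and against 3C by 0.75 and 0.62 (adjusted p = 0.00171 and 0.00343), with log2 fold changes of 0.00 and 0.04 in 3C. Nqo1, a quinone reductase, was low at 7.15 to 13.2 CPM and fell in 5C against 3C (-0.68, adjusted p = 0.0235). Hmox1, a heme-degrading oxygenase, had another order of groups. It had 242 and 258 CPM in DMSO, 146 and 149 in 3C and 181 and 174 in 5C, and fell in both cocktails (-0.79, adjusted p = 4.87e-05 and -0.48, adjusted p = 7.68e-04), with 5C above 3C (0.31, adjusted p = 0.0178). None of the 4 targets was called.

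Among the peroxidases Gpx8 alone was called. This endoplasmic reticulum enzyme had 24.7 and 25.3 CPM in DMSO, 20.4 and 20.4 in 3C and 38.0 and 44.0 in 5C, and was higher in 5C than in 3C (1.06 ± 0.11, adjusted p = 5.75e-04), a call lost without 5C replicate 2 at a log2 fold change of 0.93. Gpx4, which protects membranes from lipid peroxides, rose in 3C (0.38, adjusted p = 0.0137), Gpx1 fell in 5C against DMSO (-0.29, adjusted p = 0.0426), and Gpx7 rose in 5C against 3C (0.44, adjusted p = 0.0419). Gpx3 ran from 97.8 to 128 CPM without passing the test. Gpx2 was at or near the floor, with 12 and 0 counts in DMSO, 6 and 18 in 3C and 16 and 14 in 5C, and no difference was detectable at this depth. Catalase (Cat), which breaks down hydrogen peroxide in peroxisomes, was at 335 and 338 CPM in DMSO, 655 and 573 in 3C and 368 and 339 in 5C. It rose in 3C against DMSO (0.83 ± 0.08, adjusted p = 8.99e-05) and was lower in 5C than in 3C (-0.75 ± 0.08, adjusted p = 7.51e-04). Of the superoxide dismutases and peroxiredoxins, Sod1 rose in both cocktails (0.29, adjusted p = 0.0196 and 0.47, adjusted p = 0.00123), Sod2 in 5C (0.26, adjusted p = 0.018), and Prdx1 and Prdx6 in 3C (0.29, adjusted p = 0.0463 and 0.36, adjusted p = 0.00432), while Sod3 did not pass the test.

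The metallothioneins were higher in every cocktail library than in either DMSO library, but did not pass the test in edgeR. Mt1 was at 149 and 238 CPM in DMSO, 337 and 356 in 3C and 302 and 402 in 5C, with log2 fold changes of 0.81 ± 0.28 (adjusted p = 0.116) and 0.88 ± 0.28 (adjusted p = 0.084). Mt2 was at 124 and 209 CPM in DMSO, 339.7 and 374 in 3C and 307 and 406 in 5C, with 1.06 ± 0.31 (adjusted p = 0.0801) and 1.11 ± 0.31 (adjusted p = 0.0632). The DMSO libraries differed by more than those of 3C, and without DMSO replicate 2 both genes were called in both cocktails (adjusted p = 0.00505 to 0.0121). Mt2 was also called in both cocktails by DESeq2 (adjusted p = 0.0144 in 3C and 0.00855 in 5C) and by limma on log2 FPKM with either pseudocount (0.0114 to 0.0216). With the replicate number as a block in the fit, Mt2 was called in both (adjusted p = 0.0033 and 0.00254) and Gstm3 was called in 5C against 3C (adjusted p = 3.82e-04).

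RefSeq promoters of table build GRCm38.p6 were matched for 41 of the 49 members. The antioxidant response element core TGACNNNGC, searched on both strands of the 250 bases before the start, occurred in 10 of the 41, beside 11.5% of all 27025 genes in the table, and the metal response element core, TGCACNC or TGCGCNC, in 12 of 41, beside 23.8%. The 4 members shown were picked after their values were seen, and all but Gclm passed the test in 5C against DMSO. Their core windows are printed with the core in capitals. Those of Gstm7 and Txnrd1 lie inside the annotated gene spans (chr3:107832278-107839187 and chr10:82669785-82733546), past the outermost start. The same holds for the matches in Mgst1, Mt2, Prdx1 and Sod1, so these are upstream of a RefSeq start only. In Gclm the matches of the 2 motifs lie close enough to overlap in 1 place. They are descriptions of letters, with no test. The sequences read 5′ to 3′ on the gene's strand of GRCm39.
Gsta3, chr1:21310678-21310706, plus strand: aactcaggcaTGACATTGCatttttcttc
Gstm7, chr3:107839041-107839069, minus strand: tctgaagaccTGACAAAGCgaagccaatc
Gclm, chr3:122039062-122039090, plus strand: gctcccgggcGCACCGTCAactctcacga
Txnrd1, chr10:82694938-82694966, plus strand: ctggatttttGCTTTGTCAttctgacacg
The cores of Gclm and Txnrd1 lie on the other strand, so the capitals show the reverse complement. Gsta3 and Gstm7 rose in both cocktails, and Txnrd1 fell in 5C. Gclm rose in 3C and was at 0.07 in 5C against DMSO (adjusted p = 0.546 in edgeR).

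Other genes of the pathway were counted from separate lists. The 10 transsulfuration and methionine enzymes handle methionine, homocysteine and cysteine. Their list had 6 called higher in 3C, 7 in 5C relative to DMSO, and 2 in 5C relative to 3C, beside 5.83%, 7.30% and 2.16% of all tested genes. The edgeR test called 0 of them lower. At an unadjusted p under 0.05, 9 were higher and 0 lower in 3C and 9 higher and 1 lower in 5C against DMSO. In 5C against 3C there were 4 higher and 2 lower. Of all 19135 tested genes 6626, 7287 and 4734 reached this p in these comparisons, in either direction. Bhmt, which remethylates homocysteine, had 4.05 and 3.11 CPM in DMSO, 48.6 and 78.8 in 3C and 212 and 296 in 5C, with log2 fold changes of 4.12 ± 0.38 (adjusted p = 0.00249) and 6.17 ± 0.40 (adjusted p = 6.66e-04). Mat1a, the liver methionine adenosyltransferase, had 5.69 and 3.58 CPM in DMSO, 45.1 and 42.0 in 3C and 74.3 and 97.1 in 5C. Cbs, which forms cystathionine, had 9.47 and 12.1 CPM in DMSO, 85.2 and 83.3 in 3C and 42.9 and 40.8 in 5C, whereas Cth, the next enzyme, which releases cysteine, fell in 5C against DMSO (-0.51, adjusted p = 0.00725). Gnmt and Sardh, which pass on methyl groups, and Cdo1 and Csad, which lead cysteine to taurine, were among the 7 called higher in 5C, so the calls were not confined to enzymes that make cysteine.

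The remaining 5 lists were counted in the same way. Of all tested genes 5.83% and 3.62% were called higher and lower in 3C against DMSO, and 7.30% and 4.42% in 5C against DMSO. In 5C against 3C these shares were 2.16% and 0.852%. Among 23 other NRF2 targets 1 was called higher in 3C (Osgin1, 1.07, adjusted p = 1.06e-04) and 1 lower in 5C against both DMSO and 3C (Abcc4, -1.51 and -1.80, adjusted p = 0.00393 and 0.00543). Without the fold limit, 7 were higher and 4 lower in 3C against DMSO, beside 12.7% and 11.8% of all tested genes. In 5C 2 were higher and 14 lower against DMSO, and 0 higher and 14 lower against 3C, where 13.1% and 5.33% of all tested genes were lower. The list medians were 0.13 in 3C against DMSO, -0.34 in 5C against DMSO and -0.38 in 5C against 3C. Of 10 other NRF2 regulators, Nfe2l3 was called higher in 5C (1.07, adjusted p = 0.018) and none lower. The 15 other thioredoxin and peroxiredoxin genes had 0 calls by edgeR in every comparison. At an unadjusted p under 0.05, 6 were higher and 2 lower in 3C and 5 higher and 2 lower in 5C against DMSO. In 5C against 3C there were 4 higher and 2 lower. Beside these stood 6626, 7287 and 4734 of all 19135 tested genes in either direction. Of 23 other glutathione enzymes, 20 were tested and 3 were at 0 in every library. Among those tested, 1 was called higher and 1 lower in 3C, and 5 higher and 1 lower in 5C against DMSO, beside 7.30% and 4.42% of all tested genes. Dpep1, a membrane dipeptidase that breaks down glutathione conjugates, led the higher calls in 5C (2.39 ± 0.42, adjusted p = 0.00653), and Hpgds, a prostaglandin D synthase with a GST fold, was called lower in 3C and 5C (-1.49, adjusted p = 2.14e-05 and -1.84, adjusted p = 4.95e-06). Of 6 zinc and metal response genes, Slc30a10, a metal exporter, was called higher in 5C, at 1.74 and 1.83 CPM beside 0.121 and 0.117 in 3C and 0.0596 and 0 in DMSO (adjusted p = 0.0011 against DMSO and 0.01 against 3C).

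**Figure D5:**
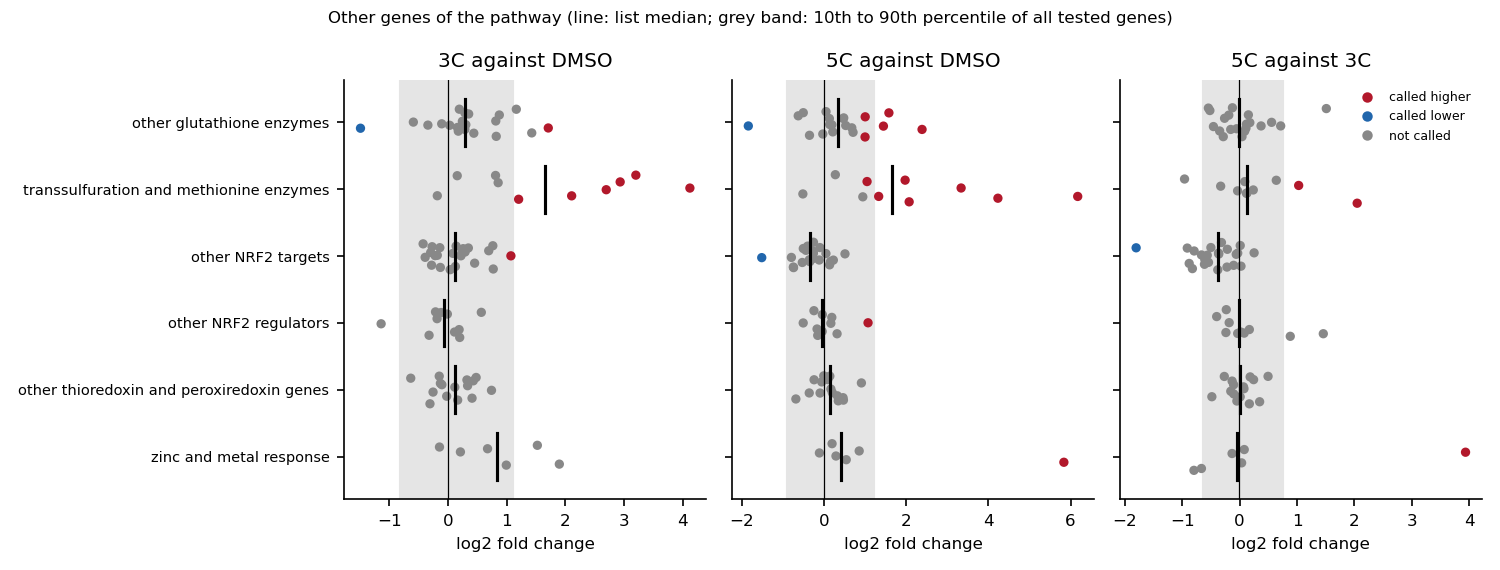
Log2 fold change (x axis) of each tested gene of 6 further lists (rows) for the 2 cocktails against DMSO and for 5C against 3C, with list medians as black lines and the 10th to 90th percentile of all 19135 tested genes as a grey band. Most transsulfuration and methionine enzymes lie right of the band against DMSO, and 18 of the 23 other NRF2 targets lie left of 0 in 5C against DMSO and 20 in 5C against 3C, with medians of -0.34 against DMSO and -0.38 against 3C.

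Shared 50-base words were counted on the longest annotated transcript of each member. Of the 49 members, 21 share at least 10% of these words with another annotated gene on either strand. A gene on the opposite strand overlaps 19 of them, and whether the counting used strand is not given in the sources used here. The largest shares outside the alpha and pi classes were 83.0% for Gpx3, 80.0% for Sod1, 75.1% for Gpx1, 62.9% for Mt2 and 61.7% for Gpx4. The longest transcript has 5315 bases for Sod1 and 2843 for Gpx3, and counts may come from shorter ones. What part of the counts is ambiguous was not tested. Replicate 1 lay above replicate 2 in 17 of 49 members in DMSO, 38 in 3C and 36 in 5C. Within 5C Gsta1 had the widest ratio, 1.90.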

How the data were processed

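Bulk RNA-seq of damaged mouse hepatocytes was analysed in 6 libraries, 2 per group. The authors deposited gene counts and FPKM values; per the labels the submitters named featureCounts, Subread and DESeq2 with GRCm39, and the aligner and strand setting are not given in the sources used here. The deposited counts were fitted with edgeR 4.0.16 (R 4.3.3; TMM factors, filterByExpr, quasi-likelihood test, all 6 libraries in 1 fit), with Benjamini-Hochberg adjustment over 19135 genes; the script was tested on simulated data. The deposited FPKM values, normalised by the authors for length and depth, were used for shares and ratios. Groups came from sample titles. The members and lists were chosen with earlier results of these data known. Members called in any comparison are given with their value in every library and the statistics of each call. Their other comparisons are given in part, and the other members by selected values, range and count. Of each further list up to 3 called genes are given with values, and all 7 transsulfuration and methionine enzymes called higher in 5C against DMSO are named. Alternatives were other normalisations and filters, DESeq2 1.42.0, limma 3.58.1 on log2 FPKM, the replicate number as a block and each library left out. Low counts of 4, 8 and 12 were more frequent than their neighbours, so a count may not be 1 fragment; dividing by 4 was tried after seeing the data.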

Additional observations from a re-analysis of the deposited data

How the results depend on the processing

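The alternatives numbered 17, or 15 or 16 for Gsta5 and Gpx2, which were not tested or had no value in some. Over these, no log2 fold change changed direction in a comparison where the member was called. In the order 5C against DMSO higher and lower, 3C against DMSO higher and lower, and 5C against 3C higher and lower, the calls numbered 6, 4, 12, 0, 1 and 6. With no limit on the fold change they were 19, 11, 25, 2, 4 and 23. Leaving out each library in turn gave 5 to 8, 1 to 4, 10 to 13, 0 to 0, 0 to 1 and 3 to 7: members called lower in 5C against DMSO numbered 1 without DMSO replicate 1 or 2 and 2 without 5C replicate 2, and those called lower in 5C against 3C numbered 3 without 3C replicate 1, while 0 were called higher there without 5C replicate 2. Where a group was left with 1 library, that library was assumed to vary like the other groups. With limma on log2(FPKM + 0.1), 0 members were called higher in 5C against 3C; with DESeq2 there were 2. With the replicate block the calls were 7, 4, 13, 0, 2 and 6, and no other call changed than those of Mt2 and Gstm3. Across all tested genes same-numbered libraries did not deviate together (Pearson r of -0.031, 0.000683 and 0.0161 for DMSO with 3C, DMSO with 5C and 3C with 5C). For Gstm3 replicate 1 was the higher in every group, and for Mt2 replicate 2. The labels do not say whether same-numbered libraries share an isolation or batch, and these correlations cannot decide it. The calls of Gsta1 in 5C against DMSO and of Gstm3 in 3C were also lost with no filter on low counts, that of Gclc in 5C against 3C when only the groups compared were fitted, and those of Mgst2, Gpx8 and Gsta5 with limma on FPKM. Dividing the counts by 4, chosen after seeing the data, added a call of Gsta5 in 3C against DMSO (adjusted p = 0.0482). Other normalisations moved the median of all genes by at most 0.05 on the log2 scale. The cause of these differences was not tested. Depth limits Gpx2 and Gsta5, and 2 libraries per group limit every comparison.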
